A study of Mus musculus with 2 samples.

Results

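In droplet RNA profiles of nuclei from mouse cerebral cortex, 140 of 17501 barcodes were picked out as excitatory neurons that share transcripts of Ndst4, Cpa6, Dpyd and Ano2. The candidates were 9861 nuclei with at most 5% mitochondrial molecules, at least 2 molecules of Slc17a7 and Sv2b together, and at most 1 molecule of Gad1 and Gad2 together. Slc17a7 encodes the vesicular glutamate transporter of cortical neurons, Sv2b a synaptic vesicle protein, and Gad1 and Gad2 the enzymes that make GABA. Each candidate was scored for how many genes it expressed in each of 7 sets of 4 genes. A nucleus was kept when at least 3 of Ndst4, Cpa6, Dpyd and Ano2 had a unique molecular identifier (UMI, 1 counted RNA molecule) and no other set reached that number.

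The nuclei came from frozen cortex of wild-type C57BL/6 mice that received no treatment. The labels describe 2 samples, 1 from mice aged 18 months and 1 from mice aged 2 months, and each sample pools 3 mice. A single matrix holds both, and its barcodes carry 2 suffixes, called library 1 and library 2 here. The labels do not say which suffix stands for which age, so no ages were compared. Values are given for each library, no test was run between them, and with no replicates no p-value was computed. All intervals are exact 95% intervals that cover counting error only.

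Library 1 held 50 of the 140 nuclei and library 2 held 90. That was 1.03% of 4851 candidates in library 1 (Clopper-Pearson interval 0.766 to 1.36%) and 1.80% of 5010 candidates in library 2 (1.45 to 2.20%). Their median depth was 10628.5 UMIs in library 1 and 11832 in library 2, against 8752 and 9037.5 UMIs in the comparison nuclei described below. They held a median of 3457 detected genes in library 1 and 3461 in library 2. A barcode sequence occurred in both libraries 19 times, and none of the 140 nuclei was among those. A doublet score of 0.2 or more was given to 8 of the 140.

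The 4 genes encode unrelated proteins. Ndst4 is a bifunctional enzyme that removes acetyl groups from heparan sulfate chains and adds sulfate in their place, a step that shapes where growth factors and guidance cues bind these chains. Cpa6 is a secreted carboxypeptidase of the extracellular matrix, and in humans variants of its gene have been linked to epilepsy. Dpyd is the rate-limiting enzyme of uracil and thymine breakdown. Ano2 is a calcium-activated chloride channel, best known from olfactory sensory neurons. In the mm10 build, by GENCODE vM21, Cpa6 lies on the minus strand at chr1:10324720-10719945. On the plus strand lie Dpyd at chr3:118562129-119432924, Ndst4 at chr3:125404076-125728899 and Ano2 at chr6:125690419-126040126.

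Because these 4 genes chose the nuclei, their levels are a description and no finding. All 140 nuclei had Dpyd, 118 had Ndst4 and 115 had Ano2, but only 58 had Cpa6. Cpa6 was present in 29 of 50 nuclei in library 1 and in 29 of 90 in library 2. Most nuclei had no molecule of Cpa6, which is part of the name proposed for them, and they are called Ndst4 Dpyd Ano2 nuclei below. Of the 129 nuclei with exactly 3 of the 4 genes, 82 lacked Cpa6, 25 lacked Ano2, 22 lacked Ndst4 and 0 lacked Dpyd. The other 11 had all 4.

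Per nucleus, Dpyd had a median of 5 UMIs in library 1 and 9 in library 2, with a maximum of 34. Ndst4 had a median of 1 UMI in library 1 and 2 in library 2, with a maximum of 28. The choice thus rested for Ndst4 and Ano2 on few molecules in most nuclei, the median of Ano2 being 1 in each library. Dpyd was not limited to these neurons. Of oligodendrocyte-like nuclei, which had 3 or more of 8 oligodendrocyte markers and neither Slc17a7 nor Sv2b, 43.3% of 483 in library 1 and 28.1% of 449 in library 2 had a Dpyd UMI. That was at median depths of 2031 and 2786 UMIs. In the same nuclei Ndst4 was found in 8.90% and 10.47%, Ano2 in 1.45% and 3.12%, and Cpa6 in 1.86% and 2.23%.

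The threshold was crossed narrowly by many nuclei. A further 215 candidates had 2 of the 4 genes with every other set below, at a median of 7866 UMIs, and 70 had 3 or 4 of the genes but another set as high. Among the 140, the highest other set scored 1 gene in 38 nuclei, 2 genes in 101 and 3 genes in 1.

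For comparison, the same rule applied to the other 6 sets gave 3172 nuclei, 1650 in library 1 and 1522 in library 2. These are named by a leading gene of each set: 386 in the Cux2 set, 363 in the Rorb set, 1338 in the Hs3st2 set, 653 in the Foxp2 set, 116 in the Prox1 set and 316 in the Fibcd1 set. For each set and library the UMIs of all nuclei were added up and scaled to counts per 1000000 (CPM).

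By CPM, Ano2 stood apart most. It measured 110 in library 1 and 141 in library 2 in the Ndst4 Dpyd Ano2 nuclei, against 4.96 and 5.88 in the 6 other sets together. Ndst4 measured 224 and 334 CPM in the Ndst4 Dpyd Ano2 nuclei, against 49.4 and 65.8 CPM in the other sets. The Fibcd1 set alone came close, with 191 and 277 CPM of Ndst4. Dpyd measured 554 and 863 CPM, against 141 and 168 CPM, and the Prox1 set had 337 and 409 CPM of it. Cpa6 measured 145 and 58.9 CPM, against 30.3 and 30.2 CPM, and in library 2 the Foxp2 set had more of it. Slc17a7 measured 308 and 201 CPM and Sv2b 601 and 584 CPM in the Ndst4 Dpyd Ano2 nuclei.

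**Figure D1:**
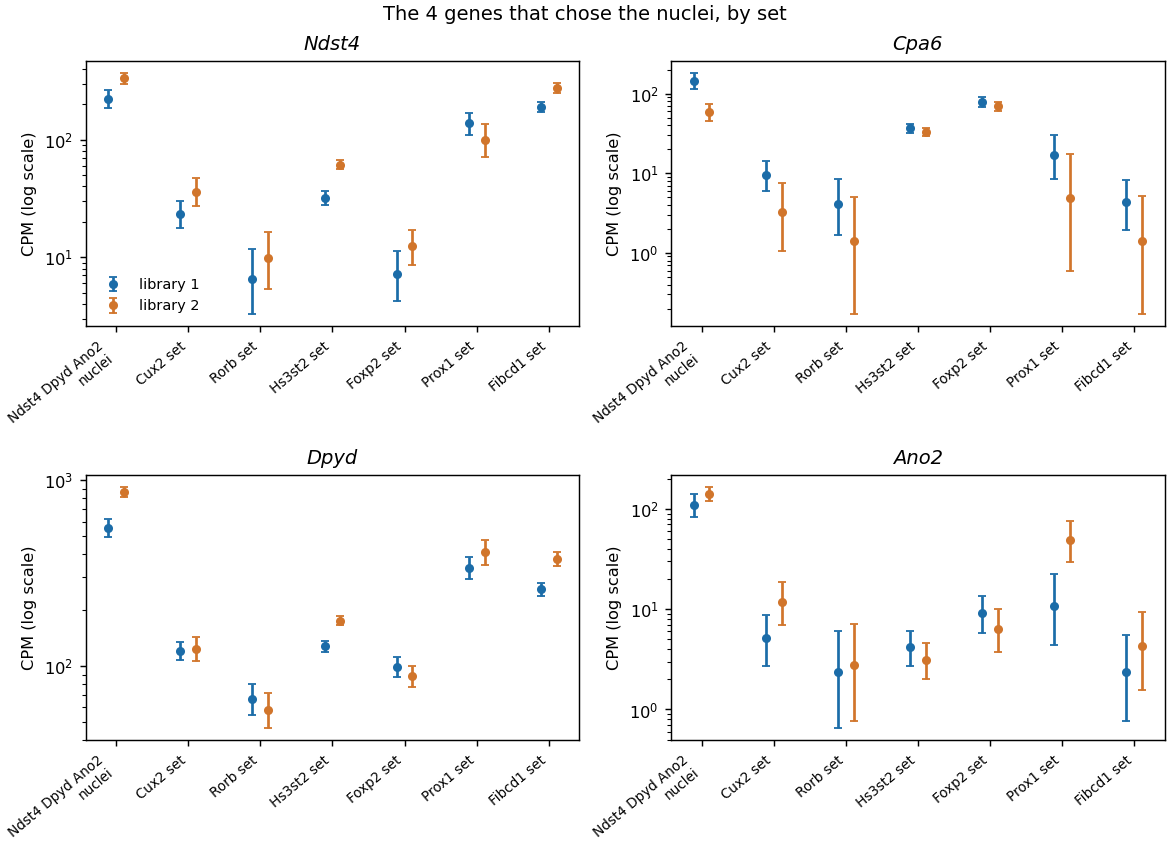
Level in CPM (log axis) of the 4 genes that chose the nuclei, in Ndst4 Dpyd Ano2 nuclei and in the 6 other sets, with library 1 and library 2 as separate points and exact 95% Poisson intervals. Ano2 is 110 and 141 CPM in the Ndst4 Dpyd Ano2 nuclei, whereas Cpa6 in library 2 (58.9 CPM) is below the Foxp2 set.

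Which other genes went with this combination was asked over all genes with at least 5 CPM in each library. A gene counted as past the fold when its CPM, with 1 CPM added, was at least 2-fold higher or at least 2-fold lower in the Ndst4 Dpyd Ano2 nuclei in each library. The genes of the 7 sets and the candidate filter were left out. Of 9738 genes measured, 80 were higher (0.822%) and 181 were lower (1.86%). The median log2 ratio of all genes measured was −0.04 in library 1 and −0.03 in library 2. The counting interval of the ratio lay above 1 for all 80 higher genes in each library. For the 181 lower genes it lay below 1 for 130 in library 1 and 164 in library 2, and 18 of them in library 1 and 4 in library 2 had no UMI in the Ndst4 Dpyd Ano2 nuclei. Gene models without a proper name made up 9 of the higher and 19 of the lower genes and are not named here.

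**Figure D2:**
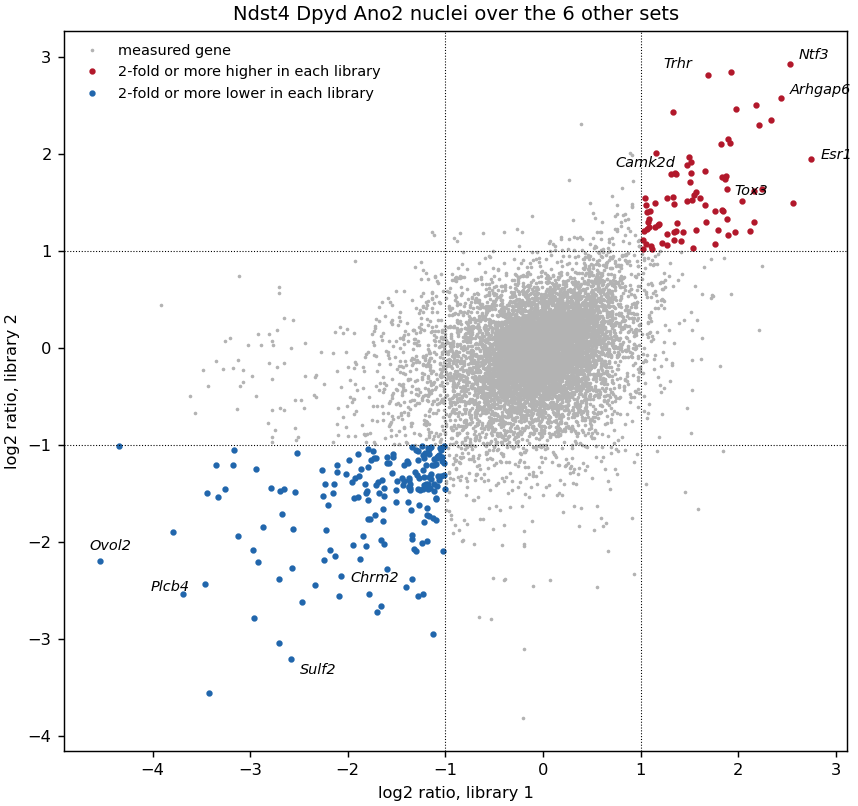
log2 ratio of Ndst4 Dpyd Ano2 nuclei over the 6 other sets, library 1 on the horizontal and library 2 on the vertical axis, for 9738 genes, with dotted lines at 2-fold. The 80 genes past the fold upward are red and the 181 past it downward are blue, and 10 genes are labelled.

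The named genes are grouped here by what they encode, a grouping made after their values were seen and not tested. Ntf3, the neurotrophin that activates the receptor TrkC, measured 56.8 CPM (Poisson interval 38.6 to 80.7) in library 1 and 60.7 CPM (47.1 to 76.9) in library 2. In the 6 other sets it measured 9.03 and 7.12 CPM, a ratio of 5.76 in library 1 and 7.60 in library 2. The Prox1 set had Ntf3 at 47.9 and 65.8 CPM, so its level did not set the Ndst4 Dpyd Ano2 nuclei apart from that set. Esr1, the oestrogen receptor alpha, measured 47.7 and 35.7 CPM in the Ndst4 Dpyd Ano2 nuclei, against 6.23 and 8.55 CPM in the other sets. Trhr, the receptor of thyrotropin-releasing hormone, measured 20.2 and 31.2 CPM, against 5.53 and 3.59 CPM. Its 11 UMIs in library 1 left a wide interval for the ratio, 1.75 to 6.85. In library 1 the Prox1 set had more Trhr, 26.3 CPM.

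Arhgap6, a GTPase-activating protein, measured 136 CPM (107 to 170) in library 1 and 180 CPM (156 to 207) in library 2, against 24.2 and 29.3 CPM in the other sets. Its ratio was 5.43 and 5.98, and each of the 6 sets lay below the Ndst4 Dpyd Ano2 nuclei. Tiam1, which activates Rac, measured 328 and 315 CPM, against 88.7 and 91.4 CPM, and the Prox1 set had 294 and 441 CPM of it. The tyrosine phosphatase Ptpn14 measured 56.8 and 84.7 CPM, against 14.2 and 11.0 CPM. The receptor phosphatase Ptprz1, which binds pleiotrophin, measured 143 and 178 CPM, against 44.6 and 49.6 CPM. Ptprz1 was higher in the Prox1 set in each library, at 150 and 205 CPM.

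Camk2d, the delta subunit of the calcium/calmodulin-dependent kinase CaMKII, measured 632 CPM in library 1 and 607 CPM in library 2. The other sets had 220 and 173 CPM, and the Ndst4 Dpyd Ano2 nuclei were the highest set in each library. The kinase Nek10 measured 53.2 and 81.2 CPM, against 13.4 and 18.0 CPM, and the Prox1 set had 80.4 and 78.0 CPM of it. Plce1, the phospholipase C epsilon, measured 36.7 and 45.5 CPM, against 12.1 and 15.2 CPM.

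Ion channel genes past the fold upward included Trpm3, a calcium-permeable cation channel that responds to heat and pregnenolone sulfate. It measured 1336 CPM in library 1 and 1521 CPM in library 2, against 457 and 511 CPM in the other sets, but the Prox1 set held more in each library. Kcnmb2, an accessory subunit of the large-conductance calcium-activated potassium channel, measured 62.3 and 47.3 CPM, against 16.1 and 14.6 CPM. Kcnk13, a background potassium channel, measured 80.7 and 32.1 CPM, against 18.9 and 10.6 CPM. In library 2 the Cux2 set had more Kcnk13, 38.6 CPM.

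Chst9, which sulfates N-acetylgalactosamine, measured 141 and 148 CPM in the Ndst4 Dpyd Ano2 nuclei, against 39.1 and 33.8 CPM in the other sets. The Prox1 set had more Chst9 in each library, 337 and 422 CPM. Col23a1, a transmembrane collagen, measured 139 and 92.8 CPM, against 28.6 and 29.1 CPM. Adamts9, a secreted metalloproteinase, measured 40.3 and 41.9 CPM, against 9.48 and 6.79 CPM. Arsj, a member of the sulfatase family, and Fndc1, a protein with fibronectin type III domains, had ratios of 4.63 and 4.49 in library 1 and 4.90 and 3.06 in library 2. The Prox1 set had more Arsj in library 1, 85.0 CPM, and more Fndc1 in library 2, 26.8 CPM.

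Tox3, a nuclear protein with a high mobility group box, measured 130 CPM (102 to 164) in library 1 and 128 CPM (108 to 150) in library 2, against 34.9 and 37.5 CPM. The transmembrane protein gene Tmem132e measured 38.5 and 34.8 CPM, against 9.61 and 7.05 CPM. Ston2, an endocytic adaptor for synaptotagmin, had 16 and 28 UMIs, and Syt10, a synaptotagmin of regulated secretion, had 21 and 35 UMIs. Both were higher still in the Prox1 set, where Ston2 measured 77.3 and 73.1 CPM.

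Of the 80 higher genes, 40 had their highest level in the Ndst4 Dpyd Ano2 nuclei in each library, 22 had it in the Prox1 set and 1 in the Fibcd1 set. Of all 9738 genes measured, 387 had it in the Ndst4 Dpyd Ano2 nuclei, 1435 in the Prox1 set and 436 in the Fibcd1 set. For 17 of the 80 the highest set differed between libraries. Only 6 of the 80 exceeded every one of the 6 sets by 2-fold in each library. They were Arhgap6, Kcnmb2, Esr1, Cdh13 and 2 unnamed gene models. In the same sense 1 gene was lower than every set, Josd2, a deubiquitinase gene singled out after its values were seen, which had 2 UMIs in library 1.

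**Figure D3:**
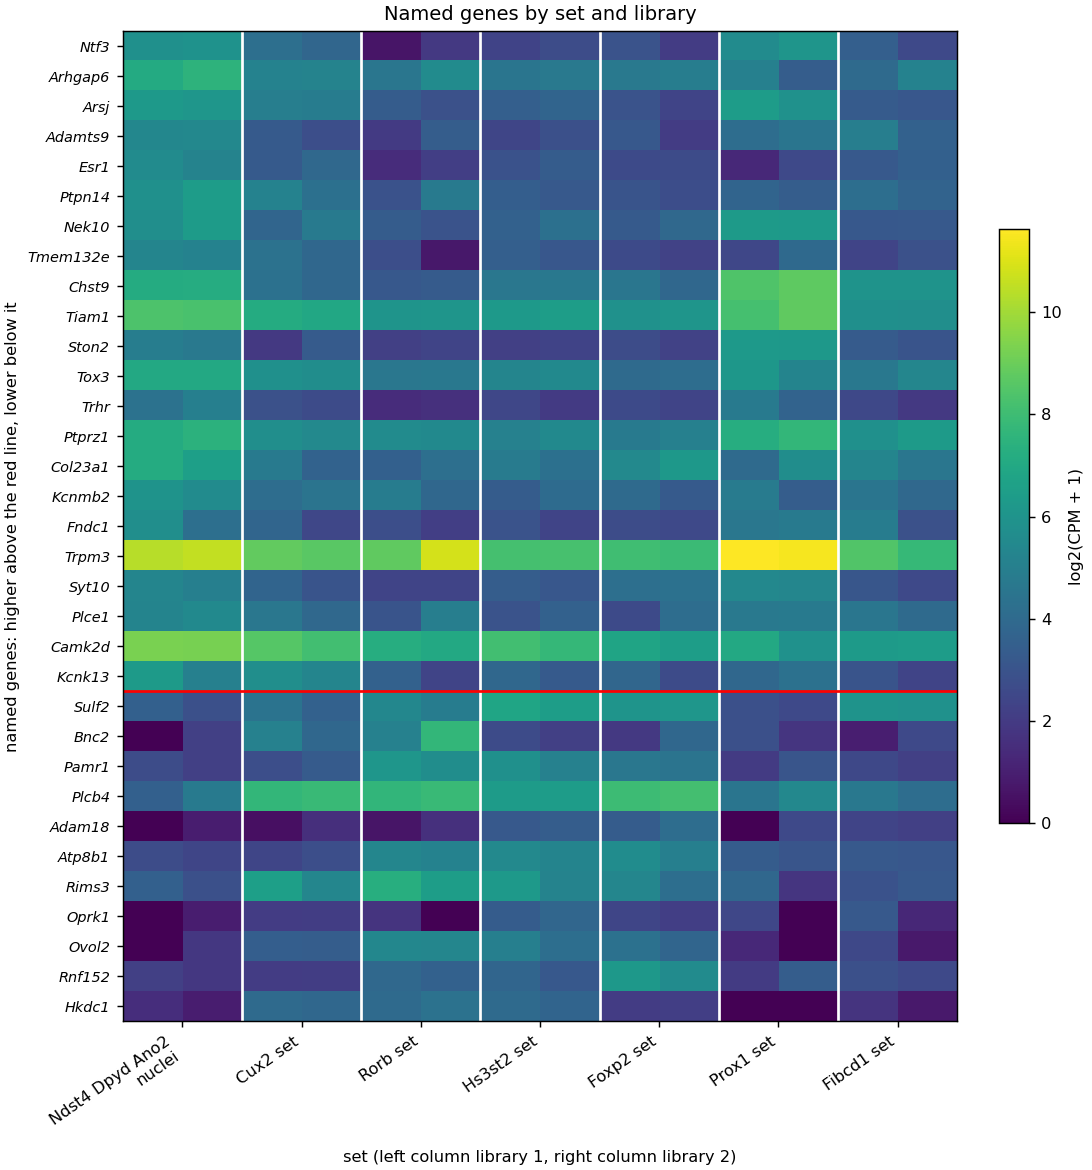
log2(CPM + 1) of the named genes (rows) in Ndst4 Dpyd Ano2 nuclei and the 6 other sets, library 1 left and library 2 right in each pair of columns. Genes past the fold upward stand above the red line and genes past the fold downward below it; Trpm3, Chst9 and Ston2 are brightest in the Prox1 set.

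The genes lower in the Ndst4 Dpyd Ano2 nuclei were most often highest in the Foxp2 and Rorb sets. The highest level of the 181 genes fell in the Foxp2 set for 50, in the Rorb set for 45 and in the Hs3st2 set for 10, while for 63 it differed between libraries. Of all 9738 genes measured, it fell in the Foxp2 set for 583, in the Rorb set for 587 and in the Hs3st2 set for 183. The Ndst4 Dpyd Ano2 nuclei were the lowest of the 7 sets in each library for 45 of the 181. Plcb4, the phospholipase C beta 4 that acts downstream of G protein-coupled receptors, measured 11.0 CPM (4.04 to 23.9) in library 1 and 25.9 CPM (17.3 to 37.1) in library 2. The other sets had 132 and 144 CPM, a ratio of 0.0905 and 0.185. Plcb4 was also low in the Fibcd1 set, at 23.9 and 17.1 CPM, and in the Prox1 set, at 21.6 and 41.4 CPM.

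Sulf2, an extracellular enzyme that trims 6-O-sulfate from heparan sulfate, measured 11.0 and 6.24 CPM in the Ndst4 Dpyd Ano2 nuclei, against 70.8 and 66.0 CPM. Rims3, a presynaptic active zone protein, measured 11.0 and 6.24 CPM, against 70.4 and 33.9 CPM. Atp8b1, a phospholipid flippase, measured 5.50 and 4.46 CPM, against 31.7 and 28.8 CPM. These levels rest on 3 to 7 UMIs of each gene in a library. Single sets were also low in these genes. Sulf2 measured 6.18 and 4.87 CPM in the Prox1 set, below the Ndst4 Dpyd Ano2 nuclei. Rims3 measured 6.68 and 8.55 CPM in the Fibcd1 set, and Atp8b1 4.33 and 5.89 CPM in the Cux2 set.

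Transcription factors were also present among the lowest genes. Ovol2, a zinc finger factor, had 0 UMIs in library 1, which makes it at least 4.05-fold lower there than the 22.3 CPM of the other sets. In library 2 it had 3 UMIs and a ratio of 0.219 (0.0347 to 0.501). Bnc2, another zinc finger factor, had 0 UMIs in library 1, at least 2.16-fold lower than 11.9 CPM, and 4 UMIs in library 2, against 25.5 CPM. In the Fibcd1 set Ovol2 measured 4.77 and 0.712 CPM and Bnc2 0.954 and 4.99 CPM, so low levels were not particular to the Ndst4 Dpyd Ano2 nuclei. Pamr1, Adam18, Oprk1, Rnf152 and Hkdc1 were also among the lowest genes, with 0 to 4 UMIs each in a library, at 5.53 to 34.9 CPM in the other sets.

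Marker genes of known cortical and hippocampal neuron types were then counted. Each count of list members below stands beside the shares over all genes measured, 0.822% higher and 1.86% lower. Layer 6 corticothalamic neurons send their axons to the thalamus, and 4 of the 6 measured markers of that type were lower and 0 higher. Tle4, a transcriptional corepressor, measured 49.5 and 42.8 CPM in the Ndst4 Dpyd Ano2 nuclei, against 109 and 146 CPM. Garnl3 measured 178 and 179 CPM, against 402 and 494 CPM. Sulf1 and Thsd7b were the other 2. The median log2 ratio over the 6 genes was −1.15 in library 1 and −1.31 in library 2. All 4 were highest in the Foxp2 set in each library. The 8 genes of the list summed to 403 and 412 CPM in the Ndst4 Dpyd Ano2 nuclei, against 826 and 1037 CPM in the 6 other sets together. The Foxp2 set summed to 2204 and 2701 CPM and the lowest single set to 283 and 267 CPM. Low levels of these markers were thus not particular to the Ndst4 Dpyd Ano2 nuclei.

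Of 4 measured markers of near-projecting neurons, which send only short axons, 2 were higher, and the median log2 ratio was 1.12 and 0.95. These were Trhr and Lypd1, a modulator of nicotinic receptors, which measured 56.8 and 69.6 CPM, against 21.8 and 24.2 CPM. Tshz2, the usual marker of that type, measured 357 CPM in library 1 and 153 CPM in library 2, against 221 and 234 CPM, so its direction differed between libraries. Lypd1 was highest in the Prox1 set.

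Upper-layer intratelencephalic neurons connect cortical areas with each other. Col23a1 was the only 1 of 10 measured upper-layer markers past the fold, while Rasgrf2 measured 194 and 215 CPM, against 127 and 126 CPM. Of 7 deep intratelencephalic markers 2 were lower, Sulf2 and Oprk1, the kappa opioid receptor. Oprk1 rested on 0 UMIs in library 1 and 1 in library 2, and its ratio interval in library 1 reached 1.05. None of the measured markers of layer 4 (5 genes), layer 5 extratelencephalic (8), layer 6b (4), retrosplenial (4) or claustral and endopiriform neurons (6) was past the fold in either direction.

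Of 7 measured markers of basolateral amygdala and piriform cortex, Reln alone was past the fold. Reln encodes the secreted glycoprotein reelin, and it measured 119 and 188 CPM in the Ndst4 Dpyd Ano2 nuclei, against 53.1 and 78.5 CPM. The level of Reln was uneven among these nuclei, as described below. Among 4 subicular markers Nos1, the neuronal nitric oxide synthase, was higher at 58.7 and 37.5 CPM, against 17.8 and 12.9 CPM.

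Hippocampal lists gave mixed counts. Of 7 CA3 markers, Trps1 was higher and Grik4 lower. Of 5 dentate granule markers only Rfx3 was higher. Of 4 CA2 markers 0 passed the fold in both libraries, and Necab2, a calcium-binding protein, measured 40.3 and 42.8 CPM, against 21.2 and 9.92 CPM. Only 1 mossy cell marker was measured, and it did not pass the fold. No list of a known type had more than 2 members higher, so the nuclei are not given a type name.

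Across 35 measured transcription factors of cortex and hippocampus, 2 were higher and 3 lower, and their median log2 ratio was −0.24 and −0.45. Rfx3, a factor of ciliary gene programmes, measured 766 and 1247 CPM in the Ndst4 Dpyd Ano2 nuclei, against 271 and 319 CPM. Trps1, a GATA-type repressor, measured 376 and 501 CPM, against 180.0 and 180.2 CPM. Among the lower factors were Tle4 and Foxp1, and Foxp1 measured 172 and 169 CPM, against 447 and 430 CPM.

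Receptor and channel genes were counted next. Of 27 glutamate receptor genes 3 were lower and 0 higher, beside 1.86% lower among all genes measured. The median log2 ratio of the 27 was 0.16 and 0.02. The kainate receptor gene Grik3 measured 75.2 and 51.7 CPM, against 200 and 291 CPM. Grik4, which encodes a high-affinity kainate subunit, measured 117 and 91.9 CPM, against 274 and 246 CPM. The metabotropic receptor gene Grm3 measured 136 and 144 CPM, against 304 and 396 CPM. The abundant subunits stayed within the fold, for example Grin2b at 2249 and 2726 CPM, against 1901 and 2243 CPM.

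Of 22 genes for monoamine, acetylcholine, opioid and cannabinoid receptors 6 were lower and 0 higher, beside 1.86% lower among all genes measured. Chrm2, a muscarinic receptor coupled to inhibitory G proteins, measured 22.0 and 12.5 CPM in the Ndst4 Dpyd Ano2 nuclei, against 95.3 and 67.8 CPM. The muscarinic receptor gene Chrm3, coupled to Gq, measured 425 and 420 CPM, against 989 and 1058 CPM. Htr2a, Adra1a, Adra1b and Oprk1 were the other 4, Oprk1 with only 0 and 1 UMIs. The median log2 ratio of the list was −0.44 in library 1 (−0.40 with genes at 0 UMIs set to their bound) and −0.50 in library 2.

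Among 13 GABA receptor genes Gabra2 alone was past the fold, at 975 and 659 CPM, against 448 and 325 CPM. None of the 38 measured genes of a potassium and HCN channel list passed it in both libraries, but that list does not hold Kcnmb2, Kcnk13 or Kcng3, which were past the fold upward. On the log2 scale the median ratio of those 38 was −0.15 in library 1 and −0.12 in library 2. Of 32 calcium, sodium and related channel genes 2 were lower, among them the sodium channel beta subunit Scn4b with 3 UMIs in each library. Of 26 genes of vesicular glutamate transport and release, only Syt10 was higher.

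Second messenger enzymes had 1 higher gene, Camk2d, and 4 lower genes of 31, beside 0.822% and 1.86% of all genes measured. The median log2 ratio of the 31 was −0.13 and −0.03. The lower ones were Plcb4, the striatum-enriched regulator Rgs9, the protein kinase C gene Prkcb and the cAMP phosphodiesterase Pde4d. Pde4d measured 715 and 743 CPM, against 1856 and 2011 CPM. Prkcb measured 475 and 522 CPM, against 1007 and 1135 CPM.

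Adhesion genes moved in both directions. Of 22 cadherins and protocadherins, Cdh4 and Cdh13 were higher and Cdh6, Cdh11 and Cdh18 lower. Among all genes measured 0.822% were higher and 1.86% lower. The median log2 ratio of the 22 was −0.11 and −0.26. Cdh13, which is anchored to the membrane by a lipid and lacks a cytoplasmic tail, measured 948 and 910 CPM in the Ndst4 Dpyd Ano2 nuclei, against 279 and 341 CPM. Cdh4 measured 235 and 319 CPM, against 109 and 119 CPM. Cdh18 measured 247 and 280 CPM, against 771 and 967 CPM.

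Of 51 genes of axon guidance and adhesion 1 was higher and 7 were lower, beside 0.822% and 1.86% of all genes measured. The higher gene, Cntnap5a of the neurexin superfamily, measured 1300 and 1584 CPM, against 612 and 631 CPM. The semaphorin genes Sema3c, Sema3e, Sema5b and Sema7a, the receptor gene Ephb6, the ephrin gene Efna5, and Cntnap4 were lower. Efna5 measured 152 and 154 CPM, against 473 and 447 CPM. The median of the whole list was 0.13 and 0.14 on the log2 scale, above that of all genes measured.

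Ndst4 acts on heparan sulfate, and 22 other genes of that pathway were measured, with a median log2 ratio of −0.17 and −0.13. Gpc4, a lipid-anchored heparan sulfate proteoglycan, was higher at 78.8 and 54.4 CPM, against 27.2 and 15.99 CPM, and it was highest in the Prox1 set. Hs3st5, Sulf1, Sulf2 and Gpc6 were lower, beside 1.86% lower among all genes measured. Hs3st5, a 3-O-sulfotransferase, measured 14.7 and 38.4 CPM, against 91.2 and 142 CPM. Ndst3, from the family of Ndst4, measured 346 and 252 CPM, against 257 and 227 CPM.

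The pathways of the other marker genes gave no member past the fold. Of pyrimidine catabolism genes 2 were measured, and Upp2, a uridine phosphorylase, measured 478 and 359 CPM, against 362 and 295 CPM. Of 10 anoctamin and chloride transport genes, Ano6 measured 180 and 168 CPM, against 104 and 92.4 CPM. Of 5 carboxypeptidase genes, Agbl4 measured 634 and 706 CPM, against 1170 and 1300 CPM. Of 11 immediate early genes and 12 genes of NAD enzymes and neuronal gap junctions, likewise 0 passed. The immediate early genes had a median log2 ratio of −0.59 and −0.58. Of 10 neuropeptide and related secreted genes Cbln2 was lower, with 1 and 3 UMIs.

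Markers of other cells were checked in the same way. None of the measured markers of astrocytes (6 genes), oligodendrocytes (7), oligodendrocyte precursors (2), microglia (3) or endothelium (1) was past the fold. The 8 astrocyte genes summed to 363 and 374 CPM in the Ndst4 Dpyd Ano2 nuclei, against 230 and 302 CPM, with sums of 144 to 829 CPM and 167 to 1289 CPM over the single sets. A pair of lists had a member past the fold upward. The interneuron list held Kcnmb2, and its 9 genes summed to 566 and 423 CPM, against 436 and 381 CPM. In library 2 the interneuron factor Lhx6 had 0 UMIs in the Ndst4 Dpyd Ano2 nuclei.

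The pericyte and fibroblast list held Dcn, the small proteoglycan decorin, at 53.2 and 25.9 CPM, against 12.9 and 10.7 CPM. Its 7 genes summed to 56.8 and 49.1 CPM, against 30.6 and 60.1 CPM, and in library 1 Pdgfrb, Vtn, Slc47a1 and Slc6a13 were at 0 UMIs. Whether these cells added to the levels was not tested.

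The other sets were not alike in their distance. The Pearson correlation of log2(CPM + 1) with the Ndst4 Dpyd Ano2 nuclei, over 9738 genes, was 0.927 in library 1 and 0.954 in library 2 for the Hs3st2 set. It was 0.928 and 0.948 for the Cux2 set, 0.921 and 0.931 for the Fibcd1 set, and 0.882 and 0.862 for the Prox1 set. These correlations are across genes within a library, and the sums behind them differ in depth, with 7705639 UMIs for the Hs3st2 set and 410307 for the Prox1 set in library 2.

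Against the Hs3st2 set alone, 142 genes were higher (1.48%) and 205 lower (2.14%). Against the Cux2 set 143 were higher (1.52%) and 152 lower (1.61%), and against the Fibcd1 set 276 were higher (2.93%) and 196 lower (2.08%). Against the Foxp2 set 314 were higher (3.25%) and 327 lower (3.39%), against the Rorb set 283 (2.95%) and 334 (3.48%), and against the Prox1 set 482 (5.05%) and 336 (3.52%). Counted in both directions together, the fewest genes were past the fold against the Cux2 and Hs3st2 sets and the most against the Prox1 set. These comparisons share the Ndst4 Dpyd Ano2 nuclei.

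To see how alike the 140 nuclei were among themselves, all candidates were clustered with the 28 genes of the sets and the 4 filter genes left out. Of the 31 clusters, cluster 1 took 86 of the 140 nuclei, 61.4% (52.8 to 69.5%). In library 1 these were 24 of 50, 48.0% (33.7 to 62.6%), and in library 2 they were 62 of 90, 68.9% (58.3 to 78.2%). Cluster 1 held 830 nuclei from both libraries, and Ndst4 Dpyd Ano2 nuclei were 10.4% of it. Among its 10 leading genes were Tox3, Tmem132e, Arhgap6, Ptpn14 and Tiam1 of the genes named above, and Reln of the lists, although the 4 rule genes took no part in the clustering.

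The remaining nuclei were scattered. Cluster 12, led by Maml2, Adarb2 and Tspan18, held 14 nuclei, 10 of library 1 and 4 of library 2, and also 110 of the 116 nuclei of the Prox1 set. Cluster 26, with 47 nuclei in all and led by Gpc5, Lef1, Reln and Cntnap3, held 7. The other 33 lay in 16 clusters with 1 to 4 nuclei each. Of those 33, 9 lay in 5 clusters led by glial or vascular genes such as St18, Slc1a3, Inpp5d, Flt1 and Vcan.

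**Figure D4:**
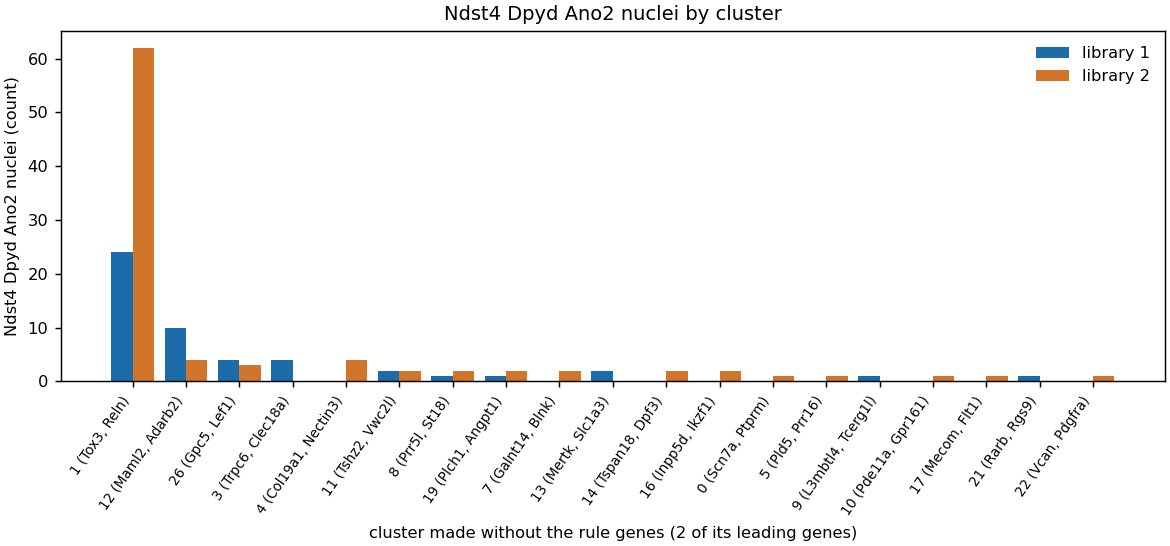
Number of Ndst4 Dpyd Ano2 nuclei in each cluster that held any, by library; clusters were made without the rule genes and carry a number and 2 of their leading genes. Cluster 1 holds 24 nuclei of library 1 and 62 of library 2, and cluster 12 holds 10 and 4.

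Genes past the fold did not come from all clusters alike, and since the clusters were built on such genes their levels are a description. In sums over both libraries, Tox3 measured 172 CPM in the 86 nuclei of cluster 1, 39.9 CPM in the 14 of cluster 12 and 14.3 CPM in the 7 of cluster 26, against 36.2 CPM in the 6 other sets. Cdh4 measured 396 CPM in the nuclei of cluster 1 and 6.66 CPM in those of cluster 12, against 114 CPM. Among the 140 nuclei, Tox3 and Cdh4 were thus highest in those of cluster 1. Esr1 was highest in those of cluster 1 too, with an interval that overlapped that of the nuclei elsewhere. It measured 49.1 CPM (36.8 to 64.3) in the nuclei of cluster 1 and 35.3 CPM (18.8 to 60.4) in the 33 nuclei outside clusters 1, 12 and 26, against 7.38 CPM in the 6 other sets. It had 0 UMIs in the nuclei of clusters 12 and 26, with upper limits of 24.6 and 52.8 CPM.

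Some other genes measured more CPM in the nuclei of cluster 12 than in those of cluster 1. There Chst9 measured 499 CPM, Ston2 99.8 CPM, Trpm3 3241 CPM, Rfx3 1770 CPM and Gpc4 166 CPM. In the nuclei of cluster 1, Chst9 measured 132 CPM, Ston2 25.03 CPM, Trpm3 1574 CPM, Rfx3 1215 CPM and Gpc4 48.2 CPM. Without the nuclei of cluster 12, which was tried after seeing the data, 84 genes were higher, 67 of them among the 80. Ston2 and Gpc4 were then no longer past the fold, while Trpm3, Rfx3 and Chst9 still were. With the nuclei of cluster 1 only, Trpm3, Rfx3, Chst9 and Ston2 were past the fold and Gpc4 was not. Reln was past it without the nuclei of cluster 12. With the nuclei of cluster 1 only it was not, at a log2 ratio of 0.42 in library 1 and 1.15 in library 2.

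Cpa6 had its own pattern. It measured 530 CPM (373 to 730.2) in the 7 nuclei of cluster 26, 99.8 CPM in those of cluster 12 and 55.6 CPM in those of cluster 1. Cpa6 is a rule gene, so these levels depend on the rule and are a description. Of the other rule genes, the 7 nuclei of cluster 26 held 5 UMIs of Ndst4, 6 of Ano2 and 14 of Dpyd. Reln measured 1446 CPM in the same 7 nuclei, against 147 CPM in the nuclei of cluster 1, and Ntf3 258 CPM, against 54.7 CPM.

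**Figure D5:**
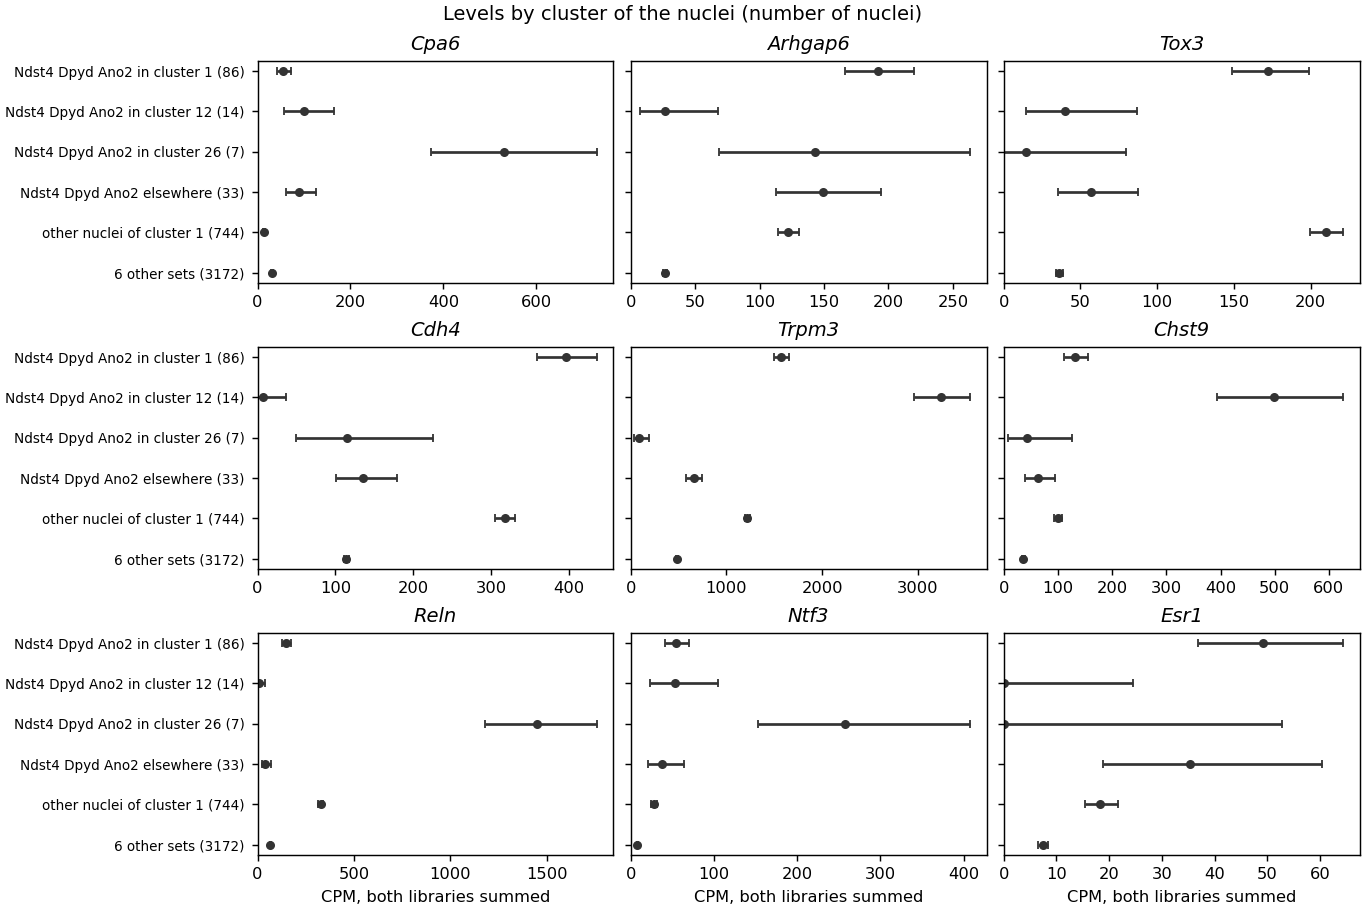
CPM with exact 95% Poisson intervals of 9 genes, both libraries summed, in Ndst4 Dpyd Ano2 nuclei by cluster, in the 744 other nuclei of cluster 1 and in the 3172 nuclei of the 6 other sets. Tox3 and Cdh4 are high in cluster 1 with and without the rule, whereas Reln and the rule gene Cpa6 peak in the 7 nuclei of cluster 26.

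The other 744 nuclei of cluster 1 were not chosen by the rule. Of them 395 had 2 of the 4 rule genes and 38 had none. In the 86 nuclei and the 744, Arhgap6 measured 192 and 122 CPM, Tox3 172 and 210 CPM, Trpm3 1574 and 1220 CPM, and Cdh4 396 and 318 CPM. In the 38 nuclei without any of the 4 rule genes, Arhgap6 measured 121 CPM, Tox3 174 CPM and Cdh4 249 CPM. These values exceed the 26.7, 36.2 and 114 CPM of the 6 other sets. Because cluster 1 was built on such genes, with Tox3 and Arhgap6 among its leading genes, this order is a description and no separate support.

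Some genes differed between the chosen and the other nuclei of cluster 1. Reln measured 147 CPM in the 86 nuclei and 328 CPM in the 744, Rfx3 1215 and 717 CPM, and Cdh13 1101 and 643 CPM. Cpa6, for which the rule itself sets the order, measured 55.6 and 13.7 CPM, below the 30.3 CPM of the 6 other sets in the 744.

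Within cluster 1 the libraries differed in some genes. In the chosen nuclei of cluster 1, Cpa6 measured 133 CPM in library 1 and 26.7 CPM in library 2, against 26.4 and 4.87 CPM in the other nuclei of that cluster. Dcn measured 85.2 and 15.3 CPM, against 36.1 and 25.3 CPM, and Reln 71.6 and 176 CPM, against 325 and 330 CPM. Arhgap6 measured 211 and 185 CPM, against 134 and 114 CPM, and Tox3 198 and 163 CPM, against 213 and 208 CPM. Arhgap6 was thus higher in the chosen than in the other nuclei in each library and Reln was lower, and for Cpa6 the rule itself sets the order, while the order for Dcn differed between libraries, with overlapping Poisson intervals in library 2 (7.90 to 26.7 CPM, against 20.7 to 30.5 CPM).

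Set against the 3018 nuclei of the 6 sets outside cluster 1, the 744 nuclei had 117 genes higher (1.2%) and 179 lower (1.84%) of 9745 measured. That comparison shares those 3018 nuclei with the main one. Its counts are a description too, since the clustering itself separated the 744 nuclei by their gene levels.

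At a finer clustering the 140 nuclei split further, into a group of 54, a group of 26, a group of 14 and a group of 12, with smaller ones beside them. In the group of 54, Trpm3 measured 2279 CPM, Ndst4 457 CPM, Esr1 70.5 CPM, Reln 61.7 CPM and Dcn 4.41 CPM. In the group of 26, which lay partly in cluster 1, Trpm3 measured 84.5 CPM, Reln 579 CPM, Trps1 767 CPM and Col23a1 198 CPM. In the group of 12, Dcn measured 164 CPM, Col23a1 219 CPM, Nos1 95.6 CPM and Trps1 95.6 CPM. Camk2d differed little among the 3 groups, at 715, 764 and 772 CPM.

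Arhgap6 measured 181, 208 and 205 CPM in these 3 groups, and Cdh13 measured 1047, 1082 and 1332 CPM. Trpm3 and Reln, by contrast, were opposite in the groups of 54 and 26. Of these 3 groups, Dcn was lowest in the group of 54 and highest in the group of 12, and Trps1 was highest in the group of 26. The group of 14 is not among the 3. In the 14 nuclei of cluster 12, Camk2d measured 180 CPM and Cdh13 552 CPM, below the 3 groups. Arhgap6 measured 26.6 CPM there on 4 UMIs, against 24.2 and 29.3 CPM in the 6 other sets.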

How the data were processed

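The values are UMI counts as deposited, whole numbers without normalization per the file headers, for 30905 genes and 17501 barcodes of both samples. Per the file headers Cell Ranger 3.1.0 made the counts, whereas the submitters' processing notes list Cell Ranger 2.0.1, Seurat 3.1, R 4.0.2 and the build mm10. This conflict was not settled. How genes were annotated, intronic reads treated and cells called is not given in the sources used. Library totals were 58108297 and 60547146 UMIs.

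Counts were summed by set and library and scaled to CPM. Intervals are exact Poisson for CPM, Clopper-Pearson for shares and, for ratios, conditional on the summed counts without added CPM, and bounds against 0 UMIs use 3 counts per library. Clusters came from scanpy 1.11.5 (2000 variable genes, 30 components, 15 neighbours, Leiden resolution 1, alternative 2). Scrublet marked 236 and 233 barcodes as doublets, which were kept. TMM factors came from edgeR 4.0.16. Calculations were tested on simulated data.

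Named are the 25 genes highest and the 15 lowest by the weaker of both libraries' log2 ratios, and list members past the fold or of high CPM. Some genes that these rules name are not reported here. Members and lists were chosen with earlier results of these data known.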

Additional observations from a re-analysis of the deposited data

How the results depend on the processing

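All 25 named higher and 15 named lower genes kept their direction in each library under every alternative except a requirement for all 4 rule genes, which left 11 nuclei. There Tmem132e measured −3.01, Kcnmb2 −0.55, Col23a1 −0.00606 and an unnamed gene model −0.40 on the log2 scale in library 2, and Plce1 −3.71 in library 1. With so few nuclei 252 genes were higher and 1372 lower, 67 members of the functional lists were lower against 33, and the shares were 0.0825% and 0.140%. With 2 rule genes, 106 genes were lower and the shares 2.84% and 4.33%. Candidates of 5000 or more UMIs gave a share of 2.25% in library 2. All other candidates as comparison gave 49 higher genes. Thinning to 4000 UMIs gave 340 lower genes, of which 112 were among the 181. A minimum of 1 CPM gave 135 higher and 419 lower genes, a minimum of 20 CPM 39 and 87, and no minimum 180 and 434, since these change the genes counted. Adding 5 CPM gave 91 lower genes. Keeping the nuclei of cluster 1 only, chosen after seeing the data, gave 355 lower genes, with shares of 0.495% and 1.24%. At Leiden resolution 2 the largest cluster held 38.6% of the nuclei. Except where stated, the cause was not tested. Other alternatives kept counts within 1.5 times, but not always the same genes. They were mitochondrial and filter limits, doublet scores, equal weights, means per nucleus and TMM factors. No cluster 12 or no Prox1 set, chosen after seeing the data, were also among them. With the 6 sets weighted equally, 48 of 66 higher genes were among the main 80, and 135 of 164 lower genes among the main 181. With 0 molecules of Gad1 and Gad2, these were 68 of 96 and 131 of 214. Without the Prox1 set, all 80 and all 181 stayed past the fold. No paired analysis was possible because the 2 samples have no replicates. The depth limits the lower genes most: in library 1 the interval lay below 1 for 130 of the 181.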
